A study of Mus musculus with 6 samples.

Results

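The semaphorins, their plexin receptors, the Eph receptors and their ephrin ligands are 4 families of axon guidance genes. They were taken from the mouse retina count table by symbol (semaphorin classes 3 to 7, plexins A to D, EphA and EphB receptors, ephrin-A and ephrin-B). Of the 31169 genes in the table, 51 matched, and 50 of these had at least 10 counts in at least 3 of the 6 libraries. These 50 members comprise 20 semaphorins, 8 plexins, 14 Eph receptors and 8 ephrins. The matching gene that was left out, *Plxnb3*, was counted 6, 0 and 3 times in the saline and 0, 2 and 2 times in the microbead libraries. The least abundant ephrin that stayed in, *Efna4*, had 34, 30 and 49 counts in the saline and 7, 3 and 10 in the microbead libraries.

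To determine how elevated intraocular pressure (IOP) alters the retinal transcriptome, whole retinas of C57BL/6 mice were profiled by poly(A) RNA-seq in the microbead occlusion model. In this model, polystyrene beads of 15 μm placed in front of the iris block the drainage of aqueous humor, which raises IOP, and control mice receive saline. Both eyes of a mouse were injected, so that the control retinas came from other mice. All mice were males injected at 1 month of age and were 2 months old when the retina was collected 4 weeks later. The 3 saline-injected and 3 microbead-injected retinas have no genetic modification stated, no untreated retina is among the libraries described here, and the sample records do not say whether the retinas of a group came from separate mice, so that p-values measure the spread between these retinas.

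Guidance ligands and receptors steer growing axons and dendrites by repulsion, attraction or adhesion at the cell surface. Secreted class 3 semaphorins mostly act through neuropilins and A-type plexins, and membrane-bound semaphorins mostly bind plexins directly. Ephrins signal both into the cell that bears the Eph receptor and back into their own cell. In the developing retina, graded EphA and EphB receptors set the map of retinal ganglion cell (RGC) axons in the brain, and semaphorins of classes 5 and 6 place neurites in the layers of the inner plexiform layer. Several members, such as *Plxnd1*, *Ephb4* and *Efnb2*, also pattern blood vessels. Whole retina pools neurons, glia and vessels, and in such libraries fewer cells of a type and less RNA per cell cannot be told apart.

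The members lie on 19 chromosomes, and their exons are long, with a median of 6928 bases of exon against 3912 for all tested genes, and rich in G and C (median 56.2% against 49.9%). The sequences before 3 members that fell after microbead injection (the lowest p-values among the falls, described further down) are shown here to set out what stands upstream of them. Each is the 250 bases that precede the RefSeq transcript start on build GRCm38.p6, 5′ to 3′ along the gene, and capitals mark the GC box GGGCGG on either strand:
*Sema5a* (chr15:32244563-32244812, forward strand): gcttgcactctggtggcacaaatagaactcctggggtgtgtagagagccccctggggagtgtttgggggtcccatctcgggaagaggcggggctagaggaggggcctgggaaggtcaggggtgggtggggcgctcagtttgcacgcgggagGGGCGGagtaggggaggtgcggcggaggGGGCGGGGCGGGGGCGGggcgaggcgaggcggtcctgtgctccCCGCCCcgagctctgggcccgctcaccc
*Sema3g* (chr14:31217623-31217872, forward strand): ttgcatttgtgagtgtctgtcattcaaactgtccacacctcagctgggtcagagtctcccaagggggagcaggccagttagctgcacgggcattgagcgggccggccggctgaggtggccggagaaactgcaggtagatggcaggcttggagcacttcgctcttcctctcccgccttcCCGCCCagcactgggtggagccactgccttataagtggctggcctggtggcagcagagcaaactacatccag
*Ephb1* (chr9:102354694-102354943, reverse strand): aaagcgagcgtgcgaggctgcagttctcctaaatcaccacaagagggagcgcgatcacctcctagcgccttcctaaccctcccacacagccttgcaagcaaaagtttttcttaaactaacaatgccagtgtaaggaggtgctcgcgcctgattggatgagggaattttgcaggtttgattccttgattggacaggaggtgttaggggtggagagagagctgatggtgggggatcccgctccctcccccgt
*Sema5a* holds 5 GC boxes, *Sema3g* 1 and *Ephb1* 0, so that this motif was not in all 3 windows. Windows were found for 44 of the 50 members, and 44 of their 58 windows (75.9%) hold a GC box, against 32.7% of all 32851 windows. TATAAA, searched on both strands, stands in 1 of the 58 windows and in 12.4% of all windows, and the E-box CACGTG, which reads the same on both strands, in 3 of 58 (5.17%) and in 6.02% of all. These matches describe the letters in the windows and no site of binding.

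The libraries held 13574949 to 46481382 counts, and the ratio of the saline to the microbead median depth was 2.40. In the library names, the numbers of the saline retinas all come before those of the microbead retinas, and the names state no batch. An effect that follows this order and one of the injection cannot be told apart. Defining markers of retina were present: the 8 rod genes summed to between 50187 and 75632 CPM (counts scaled to a library of 1000000 counts, on library sizes scaled by edgeR's TMM method), and none of the 73 marker genes of 12 retinal and neighbouring cell types was at 0 in all libraries. Saline replicate 1 stood apart, with 328 CPM summed over 9 RGC markers where saline replicates 2 and 3 had 964 and 1242 CPM and the microbead retinas 828 to 1109 CPM. It also differed from saline replicates 2 and 3 in other sums. These were the pigment epithelium (14.1 against 60.1 and 255 CPM), amacrine (637 against 970 and 1118 CPM) and microglia markers (168 against 49.8 and 75.5 CPM). The summed markers did not overlap between the groups for 3 of the 12 cell types. The sums of the 8 endothelial genes (97.3 to 126 CPM in saline, 61.3 to 80.2 CPM in microbead retina) and of the 4 horizontal cell genes (97.6 to 149 and 54.0 to 93.0 CPM) were lower. The sum of the 3 astrocyte genes (40.4 to 56.0 and 57.8 to 68.1 CPM) was higher. Single genes did not all follow these sums. *Gfap* (edgeR adjusted p = 0.393), *Pax2* and *Pdgfra* of the astrocyte list each overlapped between the groups. Of the horizontal cell list, *Calb1* and *Onecut1* overlapped, and *Lhx1* and *Onecut2* were lower without overlap.

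Levels of different genes were compared as CPM per kilobase of exon. They ran over the members from 0.240 (*Sema3d*) to 34.1 (*Sema3f*), as means of the 6 libraries. Among the semaphorins, *Sema3f*, a secreted ligand that acts through neuropilin-2, was followed by *Sema7a*, the only semaphorin anchored to the membrane by a lipid, at 19.2, and by the transmembrane *Sema6b* at 9.74. The leading plexins were *Plxnb1* (13.6), a receptor for Sema4D, *Plxnb2* (9.71) and *Plxna2* (7.27). *Epha8* (12.7), *Ephb6* (7.14), which lacks kinase activity, and *Epha4* (6.54), which binds ephrins of both classes, led the Eph receptors, and *Efnb3* (9.90), *Efnb1* (7.996) and *Efna3* (4.16) led the ephrins. In saline retina, *Plxnb1* stood at 15.2 ± 2.19 and *Plxnb2* at 11.5 ± 1.26 CPM per kilobase (SD, n = 3 each). *Epha8* at 11.8 ± 3.20 and *Epha4* at 8.14 ± 2.20 CPM per kilobase (SD, n = 3 each) overlapped as groups, while *Epha8* was the higher of the pair in each of the 6 libraries.

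**Figure D1:**
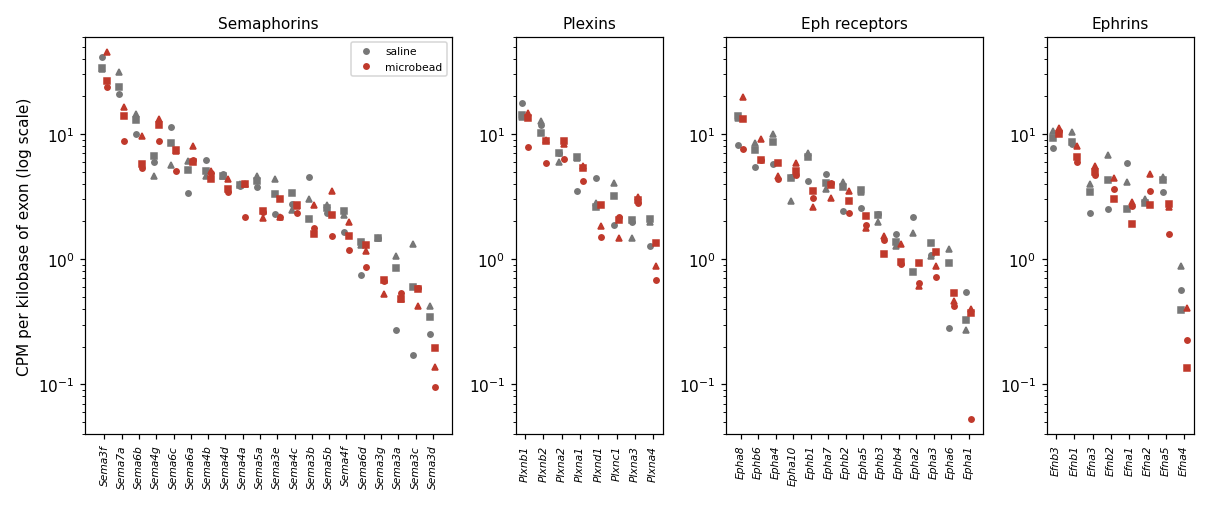
Levels of the 50 members in CPM per kilobase of exon (log scale) in the saline (grey) and microbead (red) libraries, in 4 panels by family and ordered within each by the mean of the groups. Circles, squares and triangles are replicates 1, 2 and 3. *Sema3f* stands highest of all members at 34.1, and *Sema3d* lowest at 0.240.

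Between microbead and saline retina, 6 of the 50 members (12%) had an adjusted p-value under 0.05 in edgeR's quasi-likelihood test, against 12.8% of the 17707 genes tested, a share near that of all genes. *Sema4g* was higher after microbead injection (6.46% of all tested genes were higher and past the threshold), and *Sema3g*, *Sema5a*, *Sema7a*, *Epha5* and *Ephb1* were lower (6.31% of all were lower). Most members lay lower in value: 40 of 50 log2 fold changes were below 0, against 52.1% of all tested genes, and the median was -0.40 against -0.03. This lean was not particular to the members. Of the 88 partner and other guidance genes described further down, 68 (77.3%) were below 0, with a median of -0.31. The groups did not overlap for 16 members (32%, against 37.8% of all tested genes), 12 lower and 4 higher, against 18.9% lower and 18.8% higher of all tested genes. Without saline replicate 1, 13 members were past the threshold, 12 of them lower. In that fit 15.1% of all tested genes were past it in either direction. Their split by direction was not taken, so that the 12 lower members cannot be set against all genes. Without the same library, 23 members were lower and 4 higher without overlap (26.5% and 24.4% of all tested genes). With each library left out in turn, a check added after the data were seen, 36 to 42 members had a log2 fold change below 0. The lower median was not shared alike by the microbead libraries. The median deviation of the 50 members from their mean over the 6 libraries, on the scale of log2(CPM + 0.5), was 0.04, 0.14 and 0.27 in the saline and -0.39, -0.10 and 0.02 in the microbead libraries, so that microbead replicate 1 was the lowest and microbead replicate 3 was close to saline replicate 1.

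**Figure D2:**
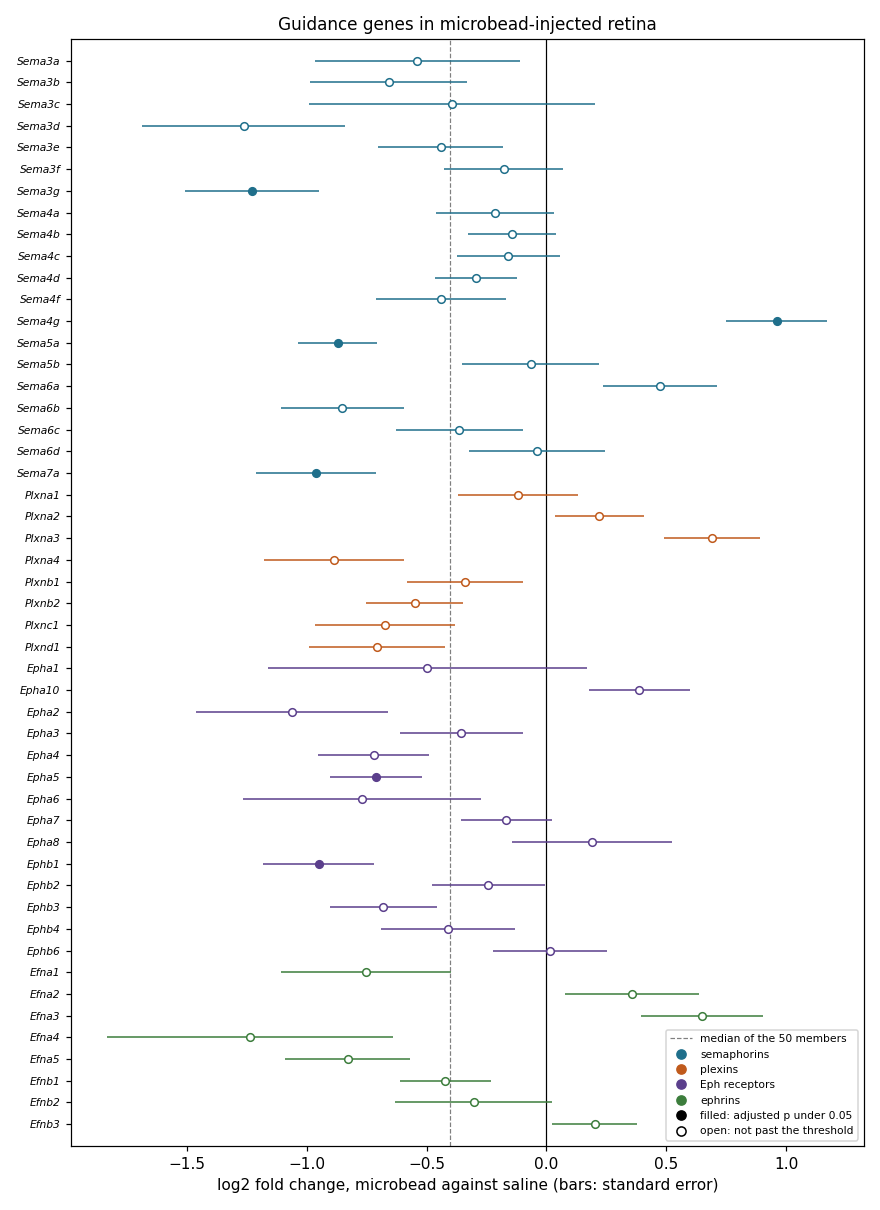
Log2 fold change of the 50 members in microbead against saline retina, with the standard error as bars, coloured by family. Filled points are the 6 members with an adjusted p-value under 0.05 (edgeR), and the dashed line at -0.40 is the median of the members, which lies to the left of 0.

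Semaphorins are the ligands of the plexins, and 4 of the 20 measured (20%, against 12.8% of all tested genes) passed the threshold in edgeR, 3 lower and 1 higher, while 16 did not. DESeq2 also placed *Sema6b* past its threshold, and limma-voom placed 3 lower and 1 higher. Of all tested genes, DESeq2 placed 20.2% past the threshold and limma-voom 12.5%. The 18 with a log2 fold change below 0 (90%, against 52.1% of all tested genes) included each of the 7 secreted class 3 genes. *Sema5a* (ENSMUSG00000022231.9) on chromosome 15, from 32244810 to 32696341 (GRCm38, as are the gene positions given with the other members), encodes a transmembrane ligand with thrombospondin repeats that restricts neurites in the inner retina through A-type plexins. It was measured at 70.7, 78.5 and 86.6 CPM in the saline and at 44.4, 45.1 and 39.5 CPM in the microbead libraries. Every microbead retina lay below every saline retina, and the means were 78.6 ± 7.96 and 43.0 ± 3.03 CPM (SD, n = 3 each). *Sema5a* thus fell by 45.3%, with a log2 fold change of -0.87 (standard error, SE, 0.16, edgeR adjusted p = 0.0164). Its relative *Sema5b*, at 16.6, 18.2 and 19.3 CPM in saline and 10.9, 16.0 and 24.9 CPM in microbead retina, overlapped between the groups (log2 fold change -0.06, SE 0.29, edgeR adjusted p = 0.901).

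*Sema7a* (ENSMUSG00000038264.8, chromosome 9, 57940112 to 57962865) encodes a lipid-anchored semaphorin that signals through the plexin of *Plxnc1* and through integrin β1. Its level was 69.2, 78.8 and 103 CPM in saline and 29.1, 45.8 and 54.0 CPM in microbead retina. The lowest saline value, in replicate 1, stood above the highest microbead value, in replicate 3, and the spread within each group was wide. The means of 83.6 ± 17.3 and 43.0 ± 12.7 CPM (SD, n = 3 each) gave a log2 fold change of -0.96 (SE 0.25, edgeR adjusted p = 0.0386). Its receptor gene *Plxnc1* was at 15.7, 26.8 and 34.0 CPM in saline and 18.3, 17.3 and 12.3 CPM in microbead retina (log2 fold change -0.67, adjusted p = 0.148 from edgeR). The *Plxnc1* groups overlapped through saline replicate 1, and without that library its log2 fold change was -0.93 (adjusted p = 0.0302 from edgeR).

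*Sema3g* (ENSMUSG00000021904.5, chromosome 14, 31217860 to 31230352), a secreted class 3 ligand that is made by vascular endothelium and binds neuropilin-2, was a low-level member. Its saline values of 6.69, 6.66 and 6.71 CPM lay close together, and its microbead values were 3.04, 3.10 and 2.40 CPM. No other called member had so small a spread in saline retina. The log2 fold change was -1.23 (SE 0.28, edgeR adjusted p = 0.0257), a fall to 2.85 ± 0.387 from 6.68 ± 0.0249 CPM (SD, n = 3 each). The summed endothelial markers were lower without overlap in the same libraries, with 3 of 8 genes past the threshold and a median log2 fold change of -0.62 over the list. The list was not uniform: *Emcn* (0.81) and *Egfl7* (0.21) had log2 fold changes above 0, and the other listed genes below 0. The part of the endothelial markers in the value of *Sema3g* was not tested.

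*Sema4g* (ENSMUSG00000025207.15, chromosome 19, 44989101 to 45003397) was the only member that rose past the threshold in edgeR's test as reported, and DESeq2 and 4 other edgeR settings added *Plxna3*. It encodes a transmembrane class 4 semaphorin that binds the plexin of *Plxnb2*. Its values were 52.0, 58.0 and 39.9 CPM in saline and 76.0, 102 and 113 CPM in microbead retina, a rise of 94.4% (log2 fold change 0.96, SE 0.21, edgeR adjusted p = 0.0242). The lowest microbead value stood above the highest saline value. *Plxnb2* had lower values in microbead retina, at 90.8, 78.5 and 97.7 CPM in saline and 45.6, 67.7 and 69.2 CPM in microbead retina, without overlap but not past the threshold (log2 fold change -0.55, SE 0.20, edgeR adjusted p = 0.0978). The other 5 class 4 genes had log2 fold changes from -0.44 to -0.14, and 0 of them passed the threshold or an unadjusted p-value under 0.05 in edgeR, DESeq2 or limma-voom.

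**Figure D3:**
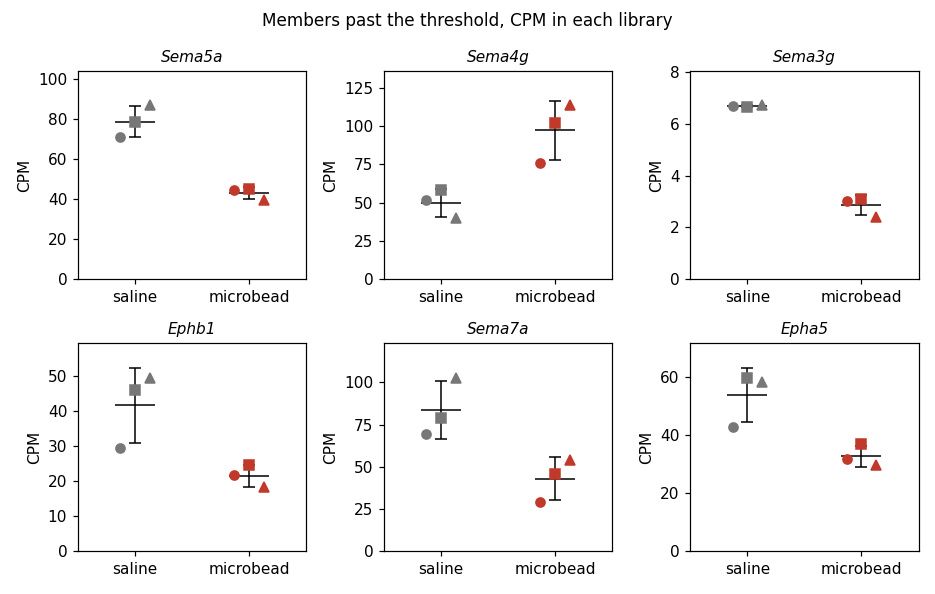
CPM of the 6 members past the threshold in each library, with circles, squares and triangles for replicates 1, 2 and 3 and with the mean and SD of each group as a line and bars. Each axis starts at 0, and in each panel the 3 microbead values lie on one side of the 3 saline values.

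Among the other semaphorins, *Sema3d* had the lowest log2 fold change and *Sema6a* the highest. *Sema3d*, a secreted ligand, was at 2.18, 2.94 and 3.60 CPM in saline and 0.823, 1.66 and 1.17 CPM in microbead retina. These groups were apart, and the log2 fold change of -1.26 had a standard error of 0.42 and an adjusted p-value of 0.0767 (edgeR). *Sema6a*, a transmembrane ligand of *Plxna2* and *Plxna4* products that separates the ON and OFF layers of the inner plexiform layer, was at 29.6, 45.0 and 53.6 CPM in saline and 54.1, 52.9 and 70.7 CPM in microbead retina (log2 fold change 0.47, SE 0.24, edgeR adjusted p = 0.207). Saline replicate 3 lay within the microbead range. *Sema6b*, another transmembrane member of class 6, was at 39.6, 51.7 and 57.9 CPM in saline and 21.4, 22.9 and 38.5 CPM in microbead retina, with a gap of little more than 1 CPM between the groups (log2 fold change -0.85, adjusted p = 0.0580 from edgeR), and the most abundant semaphorin, *Sema3f*, overlapped between the groups (log2 fold change -0.18, SE 0.25, edgeR adjusted p = 0.660). *Sema4d*, the ligand of the *Plxnb1* product, lay lower without overlap (36.0 ± 0.657 and 29.3 ± 3.79 CPM, SD, n = 3 each, adjusted p = 0.267 from edgeR). The remaining semaphorins had adjusted p-values over 0.2 (edgeR).

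The plexins are the semaphorin receptors, and 0 of the 8 measured passed the threshold in edgeR (12.8% of all tested genes did). At an unadjusted p-value under 0.05 there were 5, of which 4 had lower and 1 higher values, and among the 17707 tested genes 31.4% were under that value. DESeq2 placed 2 plexins past its threshold, *Plxna3* and *Plxna4*, and limma-voom placed 0 (20.2% and 12.5% of all tested genes in these tools). *Plxna3*, a receptor for class 3 and class 5 semaphorins, was at 15.6, 16.3 and 11.7 CPM in saline and 22.3, 23.5 and 24.6 CPM in microbead retina. Its microbead values were close together and above each saline value, and at an adjusted p-value of 0.0506 (edgeR) its log2 fold change of 0.69 (standard error 0.20) was just short of the threshold, which it passed in 5 of 9 other fits with all 6 libraries. *Plxna4*, the partner of neuropilin-1 and of Sema6A, was at 18.04, 29.6 and 28.0 CPM in saline and 9.68, 19.0 and 12.3 CPM in microbead retina (log2 fold change -0.89, SE 0.29, edgeR adjusted p = 0.0727). Microbead replicate 2 lay above saline replicate 1, so that the groups overlapped. The endothelial plexin gene *Plxnd1*, whose product is the receptor for Sema3E, was at 32.3, 19.0 and 20.5 CPM in saline and 11.1, 19.6 and 13.4 CPM in microbead retina (log2 fold change -0.71, adjusted p = 0.123 from edgeR). Its overlap came from microbead replicate 2, and the endothelial markers, lower as a sum but not in every gene in the microbead libraries, were not tested for a part in this value. The gene of its ligand, *Sema3e*, was at 31.0 ± 9.84 and 22.8 ± 4.43 CPM (SD, n = 3 each) with overlap (adjusted p = 0.277 from edgeR). *Plxna2* (log2 fold change 0.22) and *Plxnb1* (-0.34) overlapped between the groups, and *Plxna1*, the remaining plexin, had -0.12 (adjusted p = 0.780 from edgeR).

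Of the 14 Eph receptors, 2 passed the threshold in edgeR (14.3%, against 12.8% of all tested genes), both lower, and 12 did not. DESeq2 placed 4 past its threshold, adding *Epha4* and *Ephb3*, and limma-voom placed 2 (20.2% and 12.5% of all tested genes in these tools). *Ephb1* (ENSMUSG00000032537.15, chromosome 9, 101922128 to 102354693), whose receptor directs the RGC axons that do not cross at the chiasm, was at 29.5, 46.2 and 49.6 CPM in saline and 21.7, 24.8 and 18.4 CPM in microbead retina. Saline replicate 1 was the lowest of its group and still lay above each microbead value. The log2 fold change was -0.95 (SE 0.23, edgeR adjusted p = 0.0313), and -1.15 without saline replicate 1. Of its exon bases, 2.17% are also covered by a noncoding gene on the opposite strand, *Gm26846*. *Epha5* (ENSMUSG00000029245.16, chromosome 5, 84054761 to 84417382), a receptor graded along the nasal to temporal axis, was at 42.8, 59.6 and 58.1 CPM in saline and 31.6, 36.8 and 29.7 CPM in microbead retina. The groups did not overlap, and the fall of 38.9% corresponded to a log2 fold change of -0.71 (SE 0.19, edgeR adjusted p = 0.0409). With an offset for exon length and GC content its adjusted p-value was 0.0517 (edgeR).

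The remaining EphB receptors with lower values included *Ephb3*, a receptor of ventral retina, which did not overlap (14.4 ± 1.19 and 8.99 ± 1.53 CPM, SD, n = 3 each) and had a log2 fold change of -0.68 (adjusted p = 0.0722 from edgeR). *Ephb2*, of ventral retina as well, overlapped (log2 fold change -0.24, adjusted p = 0.520 from edgeR). *Epha4* was at 46.1, 69.8 and 80.7 CPM in saline and 35.4, 46.9 and 37.1 CPM in microbead retina. It overlapped by less than 1 CPM, through saline replicate 1 and microbead replicate 2 (log2 fold change -0.72, SE 0.23, edgeR adjusted p = 0.0685), and its adjusted p-value was 0.0195 without saline replicate 1. *Epha2*, an epithelial and endothelial receptor, had the lowest log2 fold change of the Eph receptors, at 10.2, 3.67 and 7.504 CPM in saline and 3.04, 4.33 and 2.86 CPM in microbead retina, with a standard error of 0.40 beside its log2 fold change of -1.06 (adjusted p = 0.105 from edgeR). On the higher side, *Epha10* was at 32.8, 32.1 and 21.1 CPM in saline and 34.0, 36.4 and 42.1 CPM in microbead retina. The groups were apart, but the log2 fold change of 0.39 was not past the threshold (SE 0.21, edgeR adjusted p = 0.241). The most abundant receptor gene, *Epha8*, spread from 35.5 to 93.7 CPM within the microbead group and had no set direction (log2 fold change 0.19, standard error 0.33, and -0.02 without saline replicate 1 or -0.21 without microbead replicate 3).

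The ephrins are membrane-bound ligands of the Eph receptors, and 0 of the 8 passed the threshold in edgeR (12.8% of all tested genes did), with 2 (25%) at an unadjusted p-value under 0.05, against 31.4% of all tested genes. DESeq2 placed 1 past its threshold, *Efna5*, and limma-voom placed 0 (20.2% and 12.5% of all tested genes in these tools). *Efna5*, the ephrin that opposes EphA-bearing axons in the retinotopic map, was at 13.9, 17.4 and 18.4 CPM in saline and 6.43, 11.1 and 10.5 CPM in microbead retina, without overlap (log2 fold change -0.83, SE 0.26, edgeR adjusted p = 0.0651). *Efnb1*, a dorsal ephrin, did not overlap either (31.6 ± 3.84 and 23.6 ± 3.62 CPM, SD, n = 3 each) and had a log2 fold change of -0.42 (adjusted p = 0.163 from edgeR). *Efnb3* (log2 fold change 0.20) and *Efna2* (0.35) had higher means in microbead retina with overlap. *Efnb2*, the arterial ephrin, and *Ephb4*, its venous receptor, overlapped as well (log2 fold changes -0.30 and -0.41, adjusted p = 0.566 and 0.344 from edgeR).

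A run of neighbouring ephrin genes lies on the reverse strand of chromosome 3: *Efna1* (89271733 to 89281142), *Efna3* (89313899 to 89322965) and *Efna4* (89333390 to 89338028). Their log2 fold changes did not share a sign. *Efna3* was at 5.68, 8.32 and 9.64 CPM in saline and 11.4, 12.2 and 13.4 CPM in microbead retina, higher without overlap (log2 fold change 0.65, SE 0.26, edgeR adjusted p = 0.117). *Efna1* on one side had a log2 fold change of -0.75 (SE 0.35, edgeR adjusted p = 0.179) and *Efna4* on the other -1.24 (SE 0.60, edgeR adjusted p = 0.190), both with overlapping groups. None of these was past the threshold, and the difference between neighbours was not tested. Of their exon bases, 14.1% of *Efna3* and 10.5% of *Efna4* are covered by antisense genes, and whether strand was used in counting is not given in the sources used here, so that reads of the antisense genes cannot be told apart.

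**Figure D4:**
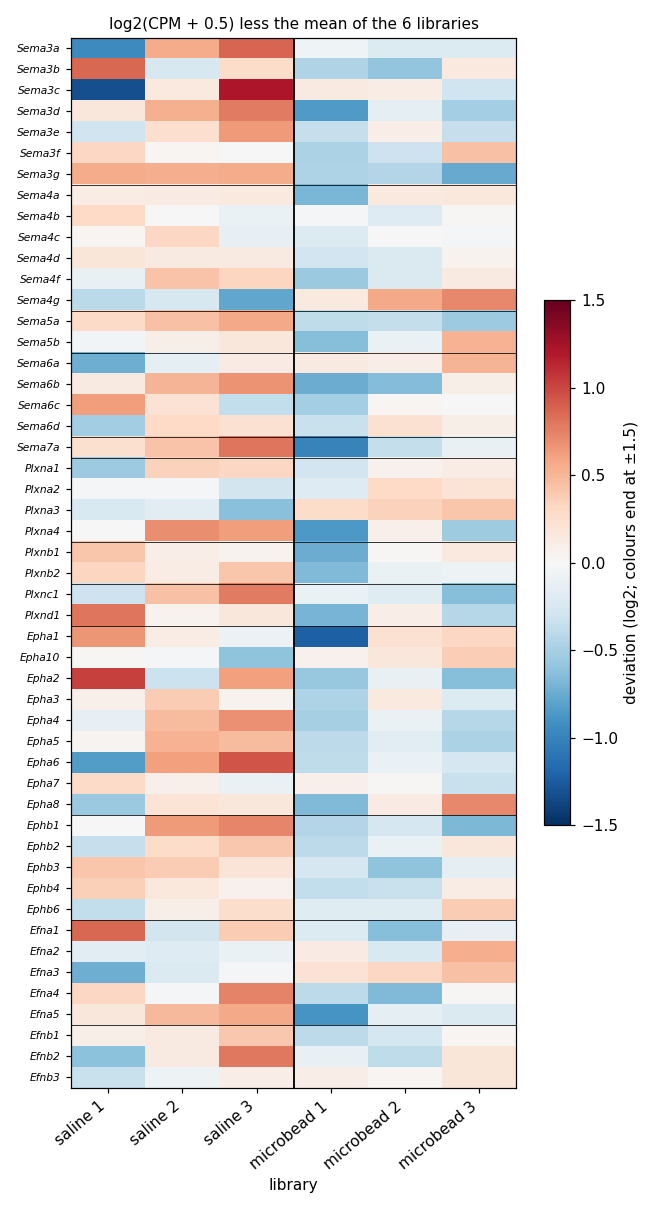
Deviation of each of the 50 members in each library from the gene's mean over the 6 libraries, as log2(CPM + 0.5), with red above and blue below the mean, lines between the classes and a vertical line between the groups. *Sema3a*, *Sema3c* and *Epha6* are blue in saline replicate 1 and red in the other saline libraries, and most members are blue in microbead replicate 1.

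Saline replicate 1 stood apart for the members as well. It was the lowest of the 3 saline libraries for 27 of the 50 members and the highest for 14, against 32.8% and 41.8% of all tested genes. *Sema3c*, a secreted ligand, was at 1.22 CPM in that library, against 4.25 and 9.44 CPM in replicates 2 and 3. *Sema3a*, the classical repellent that acts through neuropilin-1, was at 3.77 CPM against 11.7 and 14.8 CPM. *Epha6*, a receptor of the same retinal gradient as *Epha5*, was at 1.49 CPM against 4.94 and 6.33 CPM. The ratio of saline replicate 1 to the mean of the other saline libraries was 0.178, 0.285 and 0.264 in turn. That library had the lowest RGC, amacrine and pigment epithelium sums and the highest microglia sum. The part of any of these in the values was not tested. Over all 6 libraries their adjusted p-values were 0.423 for *Sema3a*, 0.690 for *Sema3c* and 0.320 for *Epha6* (edgeR). Without saline replicate 1, *Sema3a* (log2 fold change -0.93, adjusted p = 0.0352 from edgeR) and *Epha6* (-1.18, adjusted p = 0.0461 from edgeR) were past the threshold, together with *Efna5*, *Epha4*, *Plxna4*, *Plxnc1*, *Sema6b* and the 6 members named before.

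The 6 calls were made without saline replicate 1 as well, and each was lost without some other library. With each library left out in turn their log2 fold changes kept their sign and stayed within -0.94 to -0.80 for *Sema5a*, 0.82 to 1.11 for *Sema4g*, -1.28 to -1.13 for *Sema3g*, -1.15 to -0.81 for *Ephb1*, -1.17 to -0.75 for *Sema7a* and -0.85 to -0.63 for *Epha5*. Without saline replicate 2, microbead replicate 2 or microbead replicate 3, 0 members were past the threshold in edgeR, as were 1.68%, 4.01% and 0.238% of all tested genes. At an unadjusted p-value under 0.05 these fits had 18, 16 and 17 members. The share of all tested genes under that value was not taken in these 3 fits, so that these counts cannot be set against all genes. In the fit of all 6 libraries, 18 members (36%) were under that p-value, against 31.4% of all tested genes. The other tools were not run without a library. Without saline replicate 3 the calls of *Sema3g*, *Sema4g* and *Sema5a* were made, and without microbead replicate 1 those of *Sema4g* and *Sema5a*. Taken singly, each of the 6 gave p = 0.1 in the two-sided exact permutation test, the smallest p that 3 retinas against 3 allow. Any gene whose groups do not overlap reaches this value, also members not past the threshold such as *Plxna3* and *Sema6b*. It therefore does not set the 6 apart.

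**Figure D5:**
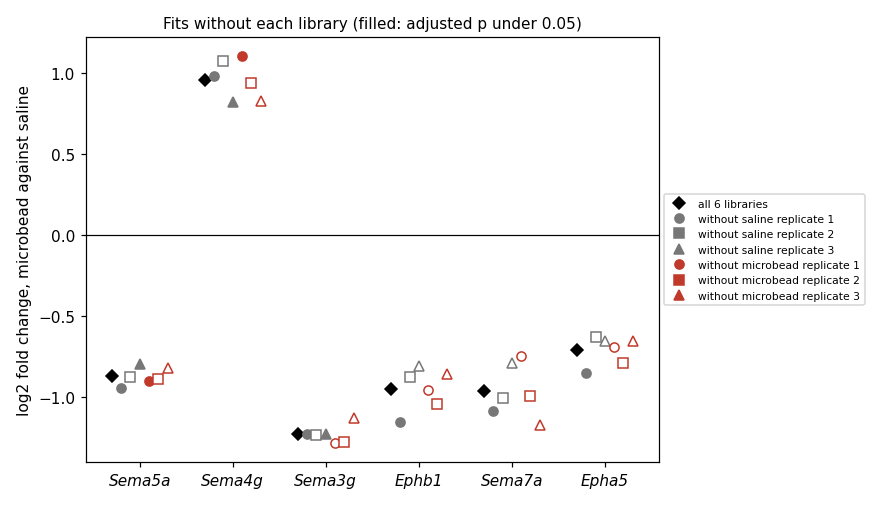
Log2 fold change of the 6 members past the threshold in the fit of all libraries (black) and in the fits without each saline (grey) or microbead (red) library, with circles, squares and triangles for the replicate left out. Filled symbols have an adjusted p-value under 0.05 (edgeR), and each gene stays on its side of 0 in the 7 fits.

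Genes that work with these families at the cell surface and inside the cell were taken as lists of 12 co-receptors, 27 plexin effectors and 24 Eph effectors. Of the 12 co-receptors, 0 passed the threshold in edgeR, DESeq2 or limma-voom. At an unadjusted p-value under 0.05 there were 4 in edgeR (33.3%, against 31.4% of all tested genes) and 5 in each of the other tools. For DESeq2 and limma-voom the share of all tested genes under that value was not taken. The median log2 fold change of the co-receptors was -0.53, against -0.03 for all tested genes. *Nrp1*, the neuropilin of Sema3A, was at 9.54 ± 0.714 and 5.97 ± 2.42 CPM (SD, n = 3 each) without overlap (log2 fold change -0.68, adjusted p = 0.173 from edgeR), and *Nrp2*, that of Sema3F and Sema3G, was at 25.01 ± 4.11 and 24.8 ± 2.52 CPM (SD, n = 3 each; log2 fold change -0.01, standard error 0.19). The difference between the neuropilins was not tested.

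Of the 27 plexin effectors, 2 were lower and 1 was higher past the threshold, and of the 24 Eph effectors, 2 were lower, so that 8.33% to 11.1% of these lists passed, against 12.8% of all tested genes. *Ngef*, the exchange factor that links EphA receptors to RhoA, was at 17.6, 23.2 and 27.2 CPM in saline and 11.8, 10.54 and 12.3 CPM in microbead retina, a log2 fold change of -0.97 (SE 0.22, edgeR adjusted p = 0.0253). The microbead values were close together and below each saline value. *Abl2*, a tyrosine kinase that acts on the cytoskeleton, fell by 0.85 on the log2 scale (adjusted p = 0.0290 from edgeR). Among the plexin effectors, *Gsk3b*, a kinase in the Sema3A response, fell by 0.74 (adjusted p = 0.0280 from edgeR) and *Dpysl3*, a collapsin response mediator, by 0.74 (adjusted p = 0.0278 from edgeR) on the log2 scale. *Mical2*, whose product oxidises actin, rose from 10.03 ± 3.19 to 20.5 ± 3.04 CPM (SD, n = 3 each; log2 fold change 1.03, adjusted p = 0.0400 from edgeR). Each of these 5 genes lost its call in 3 to 5 of the 6 fits with a library left out.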

How the data were processed

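Poly(A) RNA of whole mouse retina was sequenced from 3 saline-injected and 3 microbead-injected eyes. The authors aligned the reads with STAR 2.5.3a to GRCm38.p5 and counted them per gene with featureCounts 1.15.2, per the submitters' processing notes, and deposited 1 table of raw read counts per gene and library. The counts of all 6 libraries were used as deposited. Further columns hold the authors' DESeq2 1.14 comparison (mean signal, fold changes, p-values and calls) and were not used here. The library kit kept strand, and whether counting used strand or multi-mapped reads is not given in the sources used here.

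Groups were taken from the sample labels. Genes were filtered with edgeR's filterByExpr (minimum count 10), library sizes were scaled by TMM, and microbead was compared with saline retina over 17707 genes by quasi-likelihood testing in edgeR 4.0.16 (R 4.3.3), with p-values adjusted by Benjamini-Hochberg over all of them and a threshold of 0.05. The standard error is that implied by the test statistic. Totals of 13574949 to 46481382 counts put 3 counts, the limit that a count of 0 allows, at 0.0622 to 0.217 CPM, for counting error only. Libraries of a group differed by far more than sampling noise. The scripts were tested on simulated data. Alternatives were RLE and upper-quartile scaling, other filters, DESeq2 1.42.0, limma-voom (limma 3.58.1), a replicate block, an offset for GC content and exon length (spline with 5 degrees of freedom), a threshold of 0.01 and leaving out each library.

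Members and gene lists were chosen with earlier results of these data known. Named with values were the members past the threshold, the 3 most abundant per kilobase and the 2 highest and 2 lowest log2 fold changes of each family, the genes next to the count limit, and, in each list of partner genes, up to 2 rises and 2 falls past the threshold. Other genes given with values were chosen after their values were seen, among them members whose groups do not overlap, ligands or receptors of named members, the neuropilins and the members set apart in saline replicate 1. Exon lengths, GC content and gene positions came from the GENCODE vM21 annotation of GRCm38, matched by gene identifier, with a value for 99.7% of tested genes.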

Additional observations from a re-analysis of the deposited data

How the results depend on the processing

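The number of members past the threshold (6, of which 1 higher and 5 lower) moved with the setting. So did that of all tested genes (2261, 12.8% of 17707) and of the 88 partner genes (8). Without a filter on low counts 13 members passed (12 lower), with 17 partner genes and 3720 of 31169 genes in all (11.9%). DESeq2 gave 12 members (2 higher, 10 lower), 13 partner genes and 3582 of 17707 genes (20.2%). RLE scaling, upper-quartile scaling, at least 10 counts in every library and the offset for exon length and GC content each gave 2 higher members, *Sema4g* and *Plxna3*. These settings called 7, 7, 8 and 8 members in turn, and 12.6%, 12.5%, 15% and 15.6% of all tested genes. An adjusted p-value under 0.01 left 0 members and 0 partner genes of 87 genes in all (0.491%) in edgeR's test. At an unadjusted p-value under 0.05 there were 18 members (36%, against 31.4% of all tested genes). Leaving out single libraries, 0 to 13 members passed (0 to 1 higher, 0 to 12 lower), with 0 to 12 partner genes and 46 to 2621 genes in all (0.238% to 15.1%). The count of all genes was lowest without microbead replicate 3 and highest without saline replicate 1. The median log2 fold change of the members stayed between -0.52 and -0.26 over all settings and 35 to 42 members were below 0, whereas the median of all genes was -0.23 without a filter. Leaving out single libraries, the log2 fold change of *Epha8* ran from -0.21 (without microbead replicate 3) over -0.02 (without saline replicate 1) to 0.47, and that of *Ephb6* from -0.21 (without microbead replicate 3) over -0.15 (without saline replicate 1) to 0.15. *Ephb6* (0.01 in the reported test) was at -0.037 without a filter and -0.0089 with the offset. The causes of these shifts were not tested.

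Replicate numbers were shared between the groups, but deviations of same-numbered libraries from their group means correlated at -0.02, 0.17 and 0.006, so that the numbers were not taken to pair them. The fit with a replicate block called 3 members (0 higher, 3 lower: *Sema5a*, *Sema6b* and *Sema7a*), 2 partner genes and 905 genes in all (5.11%). The block with the offset called 2 members (*Sema4g* and *Sema7a*, 1 of them lower), 2 partner genes and 1224 genes (6.94%). Depth limits the microbead group more than the saline group, and for *Efna4*, with 3 to 10 counts in the microbead libraries, a difference of the size measured could not be told from the spread.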

Other observations

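Guidance genes outside the semaphorin, plexin and ephrin families were measured as a list of 25 netrin, slit, Robo, RGM and FLRT genes. Of these, 3 passed the threshold in edgeR (12%, against 12.8% of all tested genes), 1 higher and 2 lower, and 20 of 25 had a log2 fold change below 0 (80%, against 52.1% of all tested genes) with a median of -0.37, against -0.03. *Robo3*, a divergent Robo receptor that lets commissural axons cross the midline, was at 1.09, 1.53 and 0.399 CPM in saline and 3.71, 3.10 and 5.33 CPM in microbead retina. Each microbead value was above each saline value, and the log2 fold change of 1.99 (SE 0.51, edgeR adjusted p = 0.0366) was the largest rise among the 25. *Flrt1*, of a family of adhesion proteins that bind Unc5 receptors and latrophilins, was at 8.63, 15.5 and 15.4 CPM in saline and 3.14, 7.37 and 4.74 CPM in microbead retina. These groups did not overlap, with saline replicate 1 the lowest of its group (log2 fold change -1.39, SE 0.36, edgeR adjusted p = 0.0385). *Unc5d*, a netrin and FLRT receptor, was at 27.4, 36.9 and 38.5 CPM in saline and 14.7, 25.6 and 14.9 CPM in microbead retina (log2 fold change -0.90, SE 0.26, edgeR adjusted p = 0.0490). Microbead replicate 2 lay just below saline replicate 1. Each of these 3 calls was made in 2 of the 6 fits with a library left out. The netrin receptor gene *Dcc* (log2 fold change -1.33, standard error 0.75) and *Slit3* (-1.496, standard error 0.78) had lower values with wide errors and were not past the threshold, at adjusted p-values of 0.255 and 0.223 (edgeR).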
